A study of Mus musculus with 6 samples.

Results

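The 10 immune checkpoint genes Cd274, Pdcd1lg2, Pdcd1, Ctla4, Lag3, Havcr2, Tigit, Cd80, Cd86 and Vsir were followed through single-cell RNA sequencing of mouse pancreatic tumours. They were chosen by symbol, and all 10 were found among the 32285 genes of each of the 6 count matrices. All tumours carried KrasLSL.G12D/+, P53LSL.R172H/+ and Pdx1-Cre, in which the Pdx1 promoter drives Cre in the pancreatic lineage, so that recombination is directed to pancreatic cells. In 3 libraries the tumour had been exposed to IPI-926, a Smoothened inhibitor that blocks Hedgehog signalling, at 40 mg/kg by oral gavage daily for 2 days from a 5 mg/ml solution, and in the other 3 to its vehicle, 5% HPBCD in water, for the same time. The tumours were collected 2 hours after dosing ended, and 10x 3' libraries were prepared. The labels do not say outright that each library came from a separate animal, so the p-values measure the spread between libraries.

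Checkpoint receptors on T cells restrain activation when they meet a ligand on another cell. PD-1 (Pdcd1) binds PD-L1 (Cd274) and PD-L2 (Pdcd1lg2), while CTLA-4 (Ctla4) competes with the activating receptor CD28 for CD80 and CD86 on antigen-presenting cells. LAG-3, TIM-3 (Havcr2) and TIGIT add further restraint on chronically stimulated T cells, and VISTA (Vsir) is a restraining protein of myeloid cells and T cells. Pancreatic tumours are known for abundant myeloid cells and few T cells.

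Positions are from GENCODE vM21 on build GRCm38. The PD-1 ligands lay side by side, Cd274 (ENSMUSG00000016496) at chr19:29367455-29388095 (plus strand) and Pdcd1lg2 (ENSMUSG00000016498) at chr19:29410919-29471161 (plus strand). The CD28 and CTLA-4 ligands were Cd80 (ENSMUSG00000075122) at chr16:38455561-38496335 (plus strand) and Cd86 (ENSMUSG00000022901) at chr16:36603869-36666081 (minus strand). The receptors were Pdcd1 (ENSMUSG00000026285) at chr1:94038305-94052553 (minus strand), Ctla4 (ENSMUSG00000026011) at chr1:60887000-60915832 (plus strand), Lag3 (ENSMUSG00000030124) at chr6:124904361-124911705 (minus strand), Havcr2 (ENSMUSG00000020399) at chr11:46454935-46481255 (plus strand) and Tigit (ENSMUSG00000071552) at chr16:43648867-43664146 (minus strand), and the last gene was Vsir (ENSMUSG00000020101) at chr10:60346851-60372684 (plus strand). Cd274 and Pdcd1lg2 each overlapped a minus-strand gene of the matrix, AC119228.1 and A930007I19Rik.

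After filtering and removal of predicted doublets, 49797 cells remained, of which 38062 fell into clusters named by marker genes and 11735 did not. Levels are in CPM, the UMIs of a gene per 1000000 UMIs, where UMIs are counted molecules, over the summed cells of a class in a library, for libraries with at least 20 cells of it. The deposited libraries held 100810942 to 174929328 UMIs over 8114 to 17276 barcodes, and pairs of libraries shared 14 to 59 barcodes. IPI-926 replicate 3 stood apart: it gave 14156 of the analysed cells against 6184 to 8578 for the others. A Crabp1-rich cluster of 2257 cells, placed in the fibroblast class by marker genes, was found in it alone. Whether these cells were fibroblasts or tumour cells was not tested. Macrophages of that library carried 866 CPM of the interferon-induced chemokine Cxcl9 against 0.0918 to 14.6 CPM in the other 5 libraries. Fitted changes named below that moved by over 1.5 times when IPI-926 replicate 3 was left out are given both ways. In the fibroblasts of the vehicle libraries the Hedgehog target Gli1 stood at 10.1, 10.8 and 12.4 CPM, and in those of the IPI-926 libraries at 0.409, 1.62 and 0.159 CPM, so the groups did not overlap, although edgeR's quasi-likelihood test gave an adjusted p of 0.902 and an unadjusted p of 0.000553.

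The T or NK class had 9 of its 13 marker genes at 50 CPM or more, the neutrophil class 10 of 10, the macrophage or monocyte class 13 of 13 and the dendritic class 9 of 12. The class sizes differed widely between libraries. T or NK cells made up 1.36%, 3.74% and 0.795% of cells in vehicle replicates 1, 2 and 3 and 8.44%, 2.41% and 12.2% in IPI-926 replicates 1, 2 and 3. Neutrophils made up 5.97%, 28.8% and 11.5% of the vehicle libraries and 33.7%, 21.6% and 1.32% of the IPI-926 libraries. Neither share passed a two-sided exact permutation test between the groups, with p = 0.2 for T or NK cells and p = 0.8 for neutrophils, where 0.1 is the smallest p that 3 against 3 allows.

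The 4 genes with the highest mean in neutrophils, Cd274, Cd80, Havcr2 and Vsir, are shown with the 250 bases before their RefSeq start, because neutrophils gave their highest mean among the classes present in at least 5 libraries. For Havcr2 that order did not hold in every library. The RefSeq start of Cd80 lies inside the GENCODE span given above, so its window is not upstream of the GENCODE start. The sequences are from RefSeq on build GRCm38.p6, which held promoters for 8 of the 10 genes, and are written 5' to 3' with capitals for 2 motifs searched on both strands, TGANTCA, the core bound by AP-1 factors, and GAGGAAGT, a core bound by PU.1-type factors.
Cd274, chr19:29367188-29367437, plus strand: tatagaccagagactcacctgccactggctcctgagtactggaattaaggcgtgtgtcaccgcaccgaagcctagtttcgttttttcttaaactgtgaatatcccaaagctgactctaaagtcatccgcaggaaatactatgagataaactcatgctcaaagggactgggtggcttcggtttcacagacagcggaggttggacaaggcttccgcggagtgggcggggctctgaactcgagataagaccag
Cd80, chr16:38458683-38458932, plus strand: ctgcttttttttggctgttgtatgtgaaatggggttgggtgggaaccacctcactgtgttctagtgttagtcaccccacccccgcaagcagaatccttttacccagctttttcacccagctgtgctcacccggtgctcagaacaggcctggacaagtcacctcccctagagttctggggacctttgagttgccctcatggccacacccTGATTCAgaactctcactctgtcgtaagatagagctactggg
Havcr2, chr11:46454681-46454930, plus strand: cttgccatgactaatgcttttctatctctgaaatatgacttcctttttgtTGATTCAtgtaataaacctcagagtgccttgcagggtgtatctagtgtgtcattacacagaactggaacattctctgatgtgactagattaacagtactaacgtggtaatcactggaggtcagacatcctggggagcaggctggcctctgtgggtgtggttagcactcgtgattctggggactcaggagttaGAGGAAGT
Vsir, chr10:60346601-60346850, plus strand: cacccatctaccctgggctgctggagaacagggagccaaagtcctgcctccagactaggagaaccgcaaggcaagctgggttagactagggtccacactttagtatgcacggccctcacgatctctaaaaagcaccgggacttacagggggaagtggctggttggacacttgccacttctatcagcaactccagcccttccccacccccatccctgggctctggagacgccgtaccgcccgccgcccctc
The motif TGANTCA was found once in Cd80 and once in Havcr2 and in neither Cd274 nor Vsir, and it was present in 6.75% of 32851 promoter windows of the same length. GAGGAAGT was found in Havcr2, at 2.44% of windows, and did not overlap the other match. The core of the interferon-stimulated response element, searched as GAAA, any 2 bases and GAAA again and present in 2.98% of windows, and the STAT-type motif TTCNNNGAA, present in 7.02%, matched none of the 8 promoters.

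**Figure D1:**
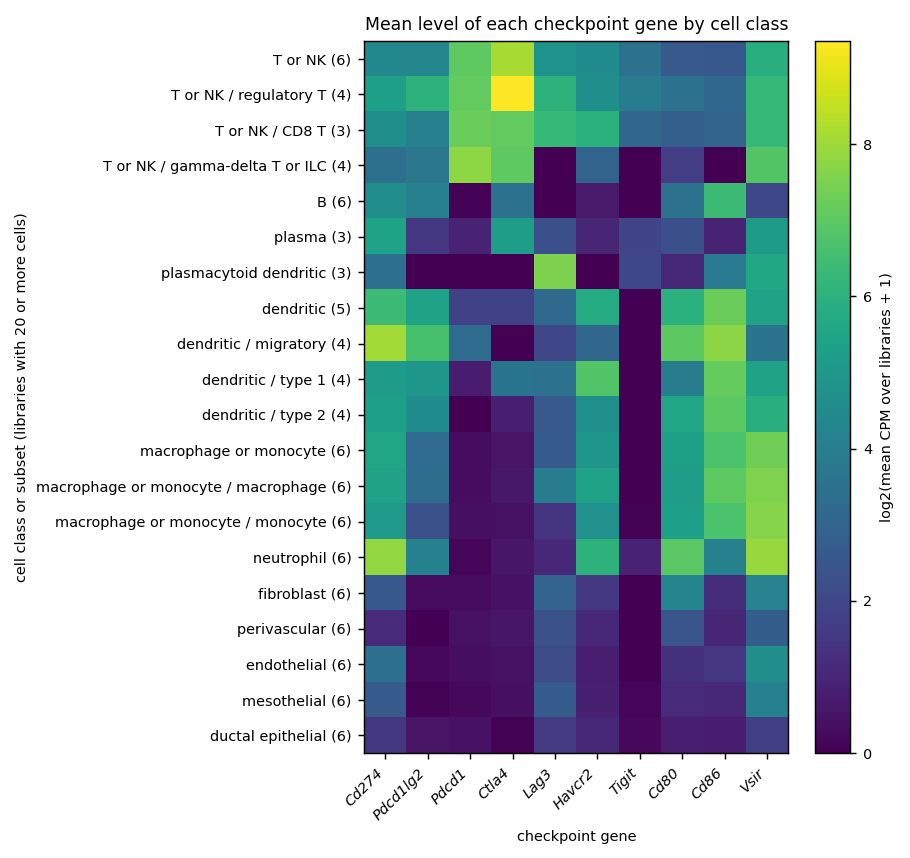
Colour gives log2 of the mean CPM over libraries plus 1 for each checkpoint gene in columns and each cell class or subset in rows, with the number of libraries in brackets. Cd274, Cd80 and Vsir were highest in neutrophils among the classes present in at least 5 libraries, Cd86 and Pdcd1lg2 in dendritic cells, and Pdcd1 and Ctla4 in T or NK cells.

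Cd274, which encodes PD-L1, was highest in neutrophils. It stood at 117, 362 and 147 CPM in vehicle replicates 1, 2 and 3 and at 415, 184 and 160 CPM in IPI-926 replicates 1, 2 and 3. The groups overlapped, with 1 high library in each. The neutrophil level of 231 CPM ± 125 (SD, n = 6) exceeded the 44.6 CPM ± 7.74 of macrophages or monocytes in 6 of 6 libraries, a mean difference of 2.20 on the log2(CPM + 1) scale. It exceeded the 83.6 CPM ± 17.7 (SD, n = 5) of dendritic cells in 5 of 5 libraries, by 1.41. The median neutrophil had 1004 to 1793 UMIs by library, against 5292 to 13727 in macrophages or monocytes. A higher CPM in neutrophils thus need not mean more UMIs of a gene per cell. At full depth a Cd274 UMI was seen in 10.7% to 35.7% of neutrophils and 17.9% to 38.8% of macrophages or monocytes. The migratory subset of dendritic cells, which carries antigen to lymph nodes, held 263 of the 543 dendritic Cd274 UMIs and stood at 219 CPM in vehicle replicate 2 and at 321, 190 and 347 CPM in the IPI-926 libraries. Type 1 and type 2 dendritic cells, the other named subsets, averaged 33.8 and 38.4 CPM over 4 libraries each, and held 39 and 80 of the 543 UMIs. The rest lay in dendritic cells without a subset name. These made up 41.3% of dendritic cells in vehicle replicate 2 and 69.6%, 34.7% and 16.1% in the IPI-926 libraries.

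Neutrophils were not uniform. A cluster of 796 cells led by Hcar2, a receptor for ketone bodies and niacin, and Ccl3, a chemokine, carried Cd274 at 532, 1155, 1083 and 635 CPM in vehicle replicates 1 and 2 and IPI-926 replicates 1 and 2. The neutrophil cluster led by Mmp9 and Siglecf carried 64.6, 328, 318 and 147 CPM in the same 4 libraries. Checkpoint genes were left out of the clustering, Cd274 was among the top 10 genes of the Hcar2 cluster afterwards, and these values are a description without a test. The Hcar2 cluster held 614 cells of IPI-926 replicate 1, the neutrophil library with the highest Cd274, and 52 to 72 cells of each of the other 3. A cluster of 95 immature neutrophils with Ngp and Camp, genes of granule formation, carried 8.86 CPM. Outside myeloid cells, Cd274 in ductal epithelial cells stood at 0.512 to 3.51 CPM over the 6 libraries. IPI-926 replicates 1 and 3 had 71 and 62 of these cells, and which cells were tumour cells was not tested. Endothelial cells of IPI-926 replicate 3 stood at 41.2 CPM against 0.489 to 6.64 CPM in the other 5 libraries. The fitted endothelial change was 2.30 with all libraries and 0.25 without IPI-926 replicate 3.

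Pdcd1lg2, which encodes PD-L2 and lies 22823 bases from the end of Cd274 on chromosome 19, was highest in dendritic cells at 41.0 CPM ± 8.32 (SD, n = 5). Within them the migratory subset stood at 118 CPM in vehicle replicate 2 and at 43.4, 92.8 and 138 CPM in the IPI-926 libraries. Regulatory T cells carried 71.1 CPM in vehicle replicate 2 and 25.04, 81.0 and 80.7 CPM with IPI-926 replicates 1, 2 and 3, from 62 UMIs over the series. Neutrophils averaged 16.1 CPM ± 9.57 (SD, n = 6). In macrophages or monocytes it stood at 1.93, 26.7 and 11.7 CPM with vehicle and at 3.22, 4.91 and 2.87 CPM with IPI-926, where the groups overlapped through vehicle replicate 1. Both ligands had their highest subset mean in migratory dendritic cells.

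Vsir was a gene of neutrophils and of macrophages or monocytes. It stood at 228, 274 and 234 CPM in the vehicle neutrophils and at 271, 213 and 233 CPM in the IPI-926 neutrophils. The groups overlapped, and macrophages or monocytes were lower in 6 of 6 libraries, by 0.64 on the log2(CPM + 1) scale. Macrophages or monocytes stood at 164, 145 and 104 CPM with vehicle and 166, 144 and 232 CPM with IPI-926. At full depth a Vsir UMI was seen in 59.5% to 78.4% of them, and in 21.9% to 33.5% of the shallower neutrophils. In the T or NK class Vsir averaged 57.8 CPM ± 26.2 (SD, n = 6). Vsir overlaps Cdh23 of the minus strand, and whether reads were counted by strand is not given in the sources used here.

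Cd80 and Cd86 encode the shared ligands of CD28 and CTLA-4, and they differed in where they were found. Cd80 was highest in neutrophils, at 52.4, 166 and 170 CPM with vehicle and 124, 143 and 88.0 CPM with IPI-926, and it exceeded macrophages or monocytes in 6 of 6 libraries. Cd86 was low in neutrophils, at 5.44 to 25.9 CPM, and highest in dendritic cells at 151 CPM ± 39.6 (SD, n = 5), followed by macrophages or monocytes at 102 CPM ± 48.1 and B cells at 83.3 CPM ± 42.6 (SD, n = 6 each). Migratory dendritic cells averaged 126 CPM of Cd80 and 212 CPM of Cd86 over 4 libraries.

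In IPI-926 replicate 3 the fibroblast class, with 2257 of its 2337 cells in the Crabp1 cluster, was the main source of Cd80. The class carried 85.1 CPM there against 0.253 to 12.6 CPM in the other 5 libraries. In that library it held 8040 of the 15326 Cd80 UMIs of the whole series. The Crabp1 cluster, which came wholly from that library, carried 85.8 CPM of Cd80, where macrophages or monocytes of that library carried 17.2 CPM. For Cd86 the same cluster stood at 2.50 CPM and the same macrophages or monocytes at 196 CPM. The 49 cells of that library in the fibroblast cluster shared with the other libraries carried 12.2 CPM of Cd80, on 10 UMIs. A Cd80 UMI was seen in 74.8% of the fibroblast class of that library, and in 8.56% once each cell was thinned to 1000 UMIs. The macrophage markers summed to 78.1 to 174 CPM in vehicle fibroblasts and 83.5 to 268 CPM in IPI-926 fibroblasts, against at least 8216 CPM in macrophages or monocytes. For fibroblast Cd80 the fitted change was 2.63 (SE 1.59, log2) with all libraries and -0.23 without IPI-926 replicate 3.

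**Figure D2:**
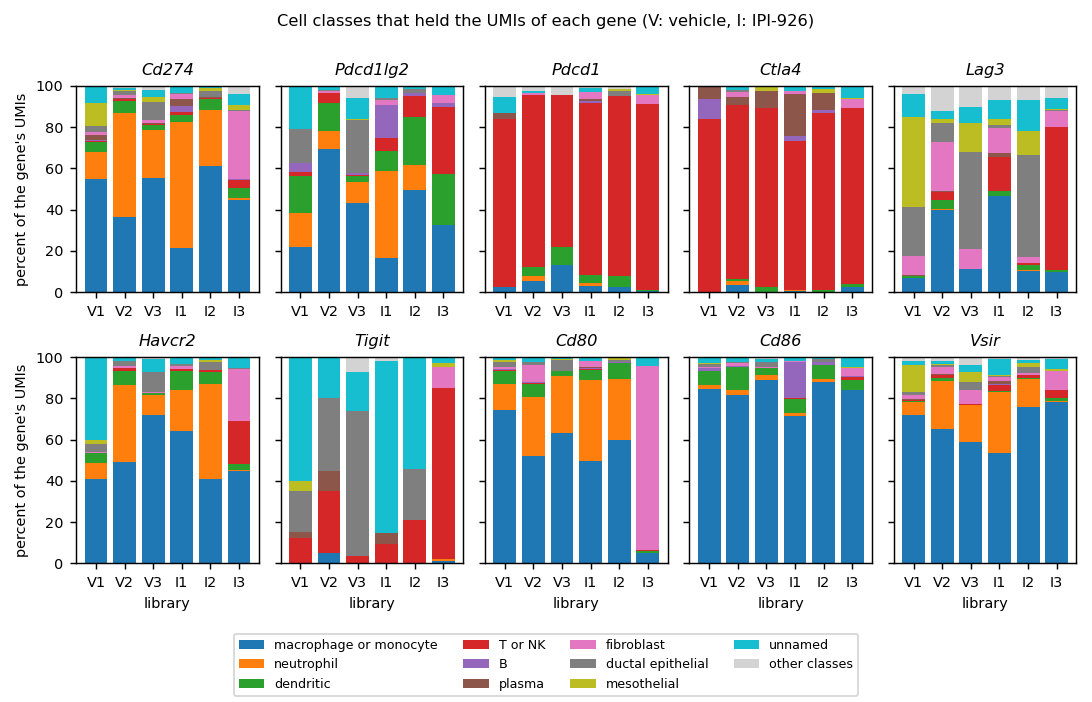
Each bar is a library (V vehicle, I IPI-926, numbered by replicate) and shows the percent of a gene's UMIs held by each cell class. Macrophages or monocytes held 71.6% to 88.9% of Cd86 UMIs and T or NK cells 73.9% to 90.2% of Pdcd1 UMIs. The fibroblast class of IPI-926 replicate 3, mainly its Crabp1 cluster, held 89.2% of the Cd80 UMIs of that library.

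Among receptors, Pdcd1 was a T or NK gene, which held 89.2% of its 2205 UMIs. The T or NK class stood at 132, 69.4 and 146 CPM with vehicle and at 41.7, 126 and 267 CPM with IPI-926. The IPI-926 libraries held both the lowest and the highest value. Of T or NK cells 67.8%, 46.1% and 100% with vehicle and 71.1%, 47.0% and 49.5% with IPI-926 had no subset name. The subset values thus cover only part of the class. CD8 T, regulatory T and gamma-delta T or ILC cells held 551, 141 and 79 of its 1967 Pdcd1 UMIs. By subset, the gamma-delta T or ILC subset stood at 190 and 222 CPM with vehicle replicates 1 and 2 and 230 and 215 CPM with IPI-926 replicates 2 and 3. Regulatory T cells, which suppress other T cells, stood at 60.9 CPM in vehicle replicate 2 and at 118, 169 and 206 CPM in the IPI-926 libraries. CD8 T cells, the cytotoxic cells, stood at 0 CPM in vehicle replicate 2 with 35 cells, at 33.3 CPM in IPI-926 replicate 1 with 81 cells and at 407 CPM in IPI-926 replicate 3 with 523 cells.

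Among the named classes and subsets Ctla4 was highest in regulatory T cells, where it is constitutively made. It stood there at 948 CPM in vehicle replicate 2 and at 480, 547 and 646 CPM in the IPI-926 libraries. In the whole T or NK class it stood at 225, 552 and 283 CPM with vehicle and 160, 305 and 149 CPM with IPI-926, where the groups overlapped. Foxp3, the regulatory T cell factor, stood in the same class at 63.7, 182 and 103 CPM and at 42.2, 76.7 and 17.3 CPM, so the libraries highest and lowest in Ctla4 were also highest and lowest in Foxp3. Plasma cells, which secrete antibody, also held Ctla4, at 8.90 and 63.7 CPM in vehicle replicates 1 and 2 and 38.8 CPM in IPI-926 replicate 1. Of the 13 T or NK markers none reached 50 CPM in plasma cells and 5 had no UMI, while the rest had some. Ctla4 itself was under 50 CPM in vehicle replicate 1 and IPI-926 replicate 1. Whether these Ctla4 UMIs came from T cells or their stray RNA was not tested.

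Lag3, a receptor that binds MHC class II, was highest in a class other than T cells. Plasmacytoid dendritic cells, producers of type I interferon, stood at 155 CPM in vehicle replicate 2 and at 231 and 155 CPM in IPI-926 replicates 1 and 3, on 23, 21 and 80 cells. Their T or NK markers were near 0: 9 of 13 had no UMI, and the summed level was 0 to 46.1 CPM. T or NK cells stood at 0, 13.9 and 0 CPM with vehicle and at 46.9, 3.65 and 96.1 CPM with IPI-926. The counts of 0 allow up to 12.7 CPM in vehicle replicate 1 and 25.8 CPM in vehicle replicate 3, taking 3 UMIs as the limit and covering counting error only. By subset, regulatory T cells carried 184 CPM in IPI-926 replicate 1 and CD8 T cells carried 207 CPM in IPI-926 replicate 3. Without IPI-926 replicate 3 the mean T or NK difference from dendritic cells and fibroblasts turned over, from 0.54 to -0.35 and from 0.39 to -0.69.

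Havcr2, which encodes TIM-3, was mainly a myeloid gene, with 49.2% of its 6562 UMIs in macrophages or monocytes. Type 1 dendritic cells, which cross-present antigen, stood at 75.7 and 108 CPM with vehicle replicates 1 and 2 and at 139 and 123 CPM with IPI-926 replicates 2 and 3. Neutrophils stood at 44.7, 104 and 31.6 CPM with vehicle and 35.7, 123 and 51.7 CPM with IPI-926. T or NK cells stood at 4.25, 15.7 and 0 CPM with vehicle and 4.22, 10.95 and 99.1 CPM with IPI-926, so replicate 3 alone was high. Its CD8 T cells carried 184 CPM on 244 UMIs, and those of vehicle replicate 2 and IPI-926 replicate 1 had no Havcr2 UMI.

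Tigit was scarce, with 272 UMIs over all cells. T or NK cells stood at 21.2, 5.55 and 8.59 CPM with vehicle and at 2.64, 9.13 and 14.02 CPM with IPI-926, on 1 to 89 UMIs a library. Unnamed clusters held 34.6% of its UMIs.

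Highest classes were compared with the next classes by a two-sided exact sign-flip permutation test over libraries, in 20 pairs, for classes with at least 20 cells in 5 or more libraries. The classes were ranked on the same values, and the smallest p is 0.03125 with 6 libraries and 0.0625 with 5. Of these pairs 16 were higher in every library and had an adjusted p of 0.0781 each, so none passed 0.05. The exceptions were Lag3 in T or NK cells against dendritic cells and fibroblasts, with adjusted p of 0.658 and 0.781, and Havcr2 in neutrophils against dendritic cells and macrophages or monocytes, with 0.625 and 0.184. Thus the order of Havcr2 levels over neutrophils, dendritic cells and macrophages did not hold up against the spread between libraries.

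Likeness to other genes was measured by Pearson's r of mean log2(CPM + 1) over 21 classes and subsets, which share libraries and are partly nested, among 12859 genes. It is a description without a test. Pdcd1 was most like Icos, a costimulatory receptor, with r = 0.981, then Xlr4c and Cxcr6, and Ctla4 most like Il2rb, with r = 0.945, then Gm15472 and Gm19585. Cd86 was most like Gm6377, with r = 0.952, then H2-Aa and H2-Eb1, the MHC class II genes, and Havcr2 most like E230029C05Rik, with r = 0.945, then Lilr4b and Rbpj. Cd274 followed Gm36043, Cd80 and Ebi3, with r = 0.886 for the nearest, and Pdcd1lg2 followed Traf1, Bcl2a1d and Tspoap1, with r = 0.912. Cd80 followed Mcemp1, Gm2396 and D930030I03Rik, with r = 0.929. Lag3 followed Cdc14b, Klk1b27 and Fgfr1op2, with r = 0.824, and Tigit followed Rab39b, Neb and Cd28, with r = 0.898.

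Between IPI-926 and vehicle, no checkpoint gene passed an adjusted p of 0.05 in any class by edgeR, and none did by DESeq2 or limma-voom. In the T or NK class 5 of the genes could be tested, and edgeR called 0 of them, while it called 0.014% of 7130 genes. In macrophages or monocytes, neutrophils and dendritic cells it called 0 of 7, 0 of 6 and 0 of 6, and 0% of all genes tested, 13086, 8446 and 8023. In B cells it called 0 of 1, with 0.0371% of 2695 genes called. At an unadjusted p under 0.05, 1.78% of genes passed in T or NK cells, 1.7% in macrophages or monocytes, 4.4% in neutrophils, 2.07% in dendritic cells and 2.08% in B cells, and among the checkpoint genes tested there Cd86 in B cells alone did. In ductal epithelial cells 0 of 7, in fibroblasts 0 of 4, in endothelial cells 0 of 2 and in mesothelial cells 0 of 3 were called, each with 0% of genes called, and none of them had an unadjusted p under 0.05, where 2.34%, 3.82%, 3.88% and 3.85% of all genes did. Groups that did not overlap, with IPI-926 higher, were seen for 0 of 5 checkpoint genes in T or NK cells, 0 of 6 in neutrophils, 0 of 6 in dendritic cells, 0 of 4 in fibroblasts, 0 of 2 in endothelial cells and 0 of 3 in mesothelial cells. Over all genes tested the shares were 3.3%, 4.49%, 7.59%, 4.31%, 4.67% and 4.73%. The single gene called in T or NK cells and in B cells, named here after its values were seen, was Gkn2, a gastrokine and the leading gene of a ductal cluster of 2496 cells, at 89.2, 68.5 and 120 CPM in vehicle T or NK cells and 0, 3.65 and 2.21 CPM in IPI-926 ones. Ductal cells made up 18.7%, 6.62% and 37.1% of the vehicle libraries and 0.964%, 11.3% and 0.438% of the IPI-926 libraries, and their part in this value was not tested.

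**Figure D3:**
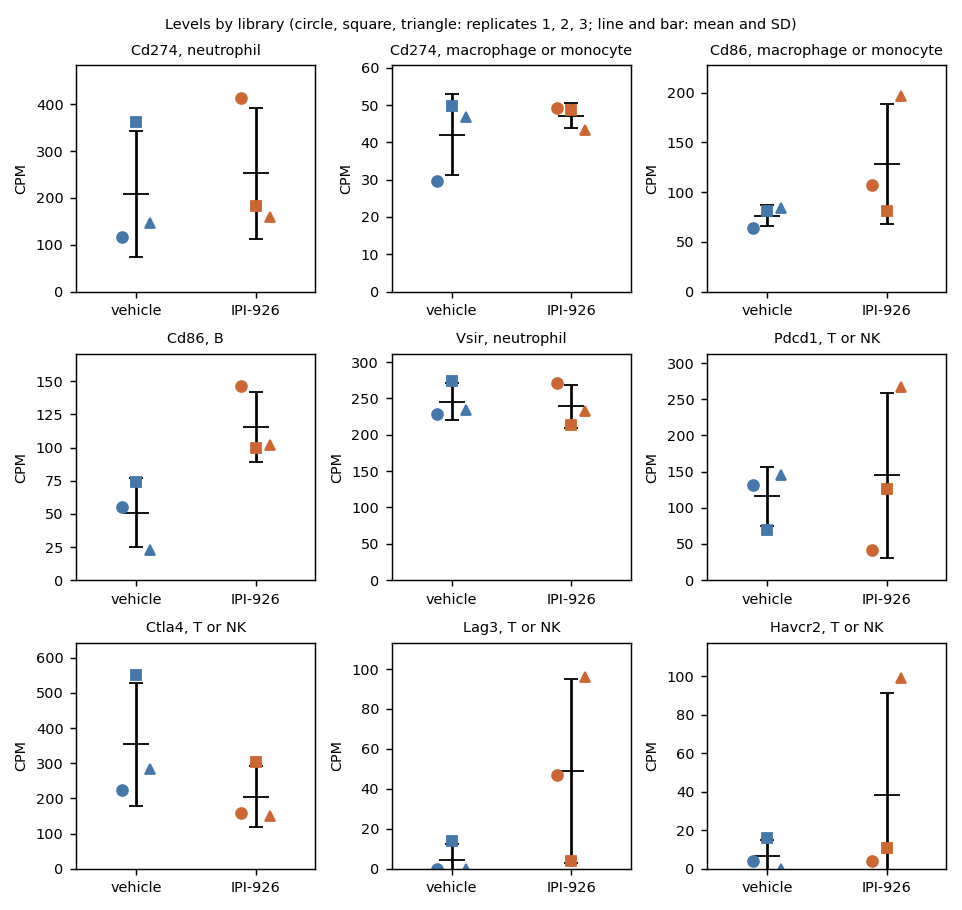
Points are CPM in each library for 9 pairs of gene and class, with the mean and SD of the 3 libraries of a group as line and bar. Cd86 in B cells is the panel whose groups do not overlap, at 22.7 to 74.3 CPM with vehicle and 99.4 to 146 CPM with IPI-926.

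Cd86 had the smallest unadjusted p within a class, 0.0124 in B cells. In these cells, which present antigen to T cells, it stood at 55.4, 74.3 and 22.7 CPM with vehicle, on 2 to 12 UMIs a library, and at 146, 99.4 and 102 CPM with IPI-926. The groups did not overlap, as was so, with IPI-926 higher, for 2.89% of genes tested in B cells. The fitted change was 1.17 (SE 0.43, log2), with an adjusted p of 0.998 by edgeR. Of B cells thinned to 1000 UMIs, 5.04% ± 2.21 held a Cd86 UMI with vehicle and 10.8% ± 3.31 with IPI-926 (SD, n = 3 each), with p = 0.1 by a two-sided exact permutation test, the smallest possible. In macrophages or monocytes Cd86 stood at 63.9, 80.7 and 84.4 CPM with vehicle and at 107, 81.0 and 196 CPM with IPI-926. These CPM overlapped, but after TMM scaling between libraries they did not, as was so, with IPI-926 higher, for 2.92% of genes tested there. The change was 0.80 (SE 0.34), with an adjusted p of 0.999998 by edgeR, and 0.35 without IPI-926 replicate 3. The macrophages or monocytes of that library lay mainly in clusters holding 2688 and 1745 of its cells, and 36 were in the Mmp12 and Chil3 cluster that held 536, 2402 and 574 cells of the vehicle libraries. For that library the comparison is thus largely between different clusters. Within the Mmp12 and Chil3 cluster Cd86 stood at 90.8, 85.2 and 91.7 CPM with vehicle and 119, 89.0 and 200 CPM with IPI-926. The cluster led by Ly6c2 stood at 81.9 and 82.8 CPM in vehicle replicates 1 and 2. With IPI-926 that cluster stood at 80.5, 68.6 and 194 CPM. The part of cluster make-up in the change was not tested. The responses of macrophages and neutrophils in Cd86 differed by 1.13 (SE 0.44), with an adjusted p of 0.818 by limma over 8365 genes, of which 0% were called. It was the 1 of 6 checkpoint genes with an unadjusted p under 0.05 there, as 3.72% of all genes had. Macrophage and dendritic responses were compared for the same 6 genes, and 0 were called by limma, with 0% of 8011 genes, and 0 had an unadjusted p under 0.05, with 1.34% of genes.

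Of the 5 genes tested in T or NK cells, which do not include Havcr2 and Tigit, Lag3 had the largest fitted change, 2.74 (SE 1.17), with an adjusted p of 0.9995 by edgeR. Without vehicle replicate 2 the vehicle libraries left had 0 Lag3 UMIs, and the fitted value of 9.58 depends on the prior count. Without IPI-926 replicate 1 or IPI-926 replicate 3 Lag3 did not pass the low-count filter there and had no value. Without the filter on low counts the same test gave 2.78 with an adjusted p of 0.0126, and no other checkpoint gene was called in any class under the alternatives run. The responses of T or NK cells and macrophages in Lag3 differed by 2.74 (SE 1.08), with an adjusted p of 0.9996 by limma over 6996 genes, of which 0% were called and 2.19% had an unadjusted p under 0.05. The change in Ctla4 was -0.66 (SE 0.43) and in Pdcd1 0.47 (SE 0.58), and without IPI-926 replicate 3 Pdcd1 turned to -0.29. Ctla4 came to -1.07 without IPI-926 replicate 2 and to -0.22 without vehicle replicate 2, and Pdcd1 to 0.90 without IPI-926 replicate 1 and to 0.12 without vehicle replicate 2. The share of T or NK cells with a Pdcd1 UMI among cells thinned to 1000 UMIs was 17.6%, 5.19% and 14% with vehicle and 3.25%, 15.1% and 19.0% with IPI-926. The same share for Ctla4 was 15.3%, 39.4% and 20% with vehicle and 12.8%, 24.7% and 13.8% with IPI-926. The permutation p-values were 1 and 0.5. As background, at the same depth Ctla4 was found in 0% to 2.6% of B cells of a library.

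**Figure D4:**
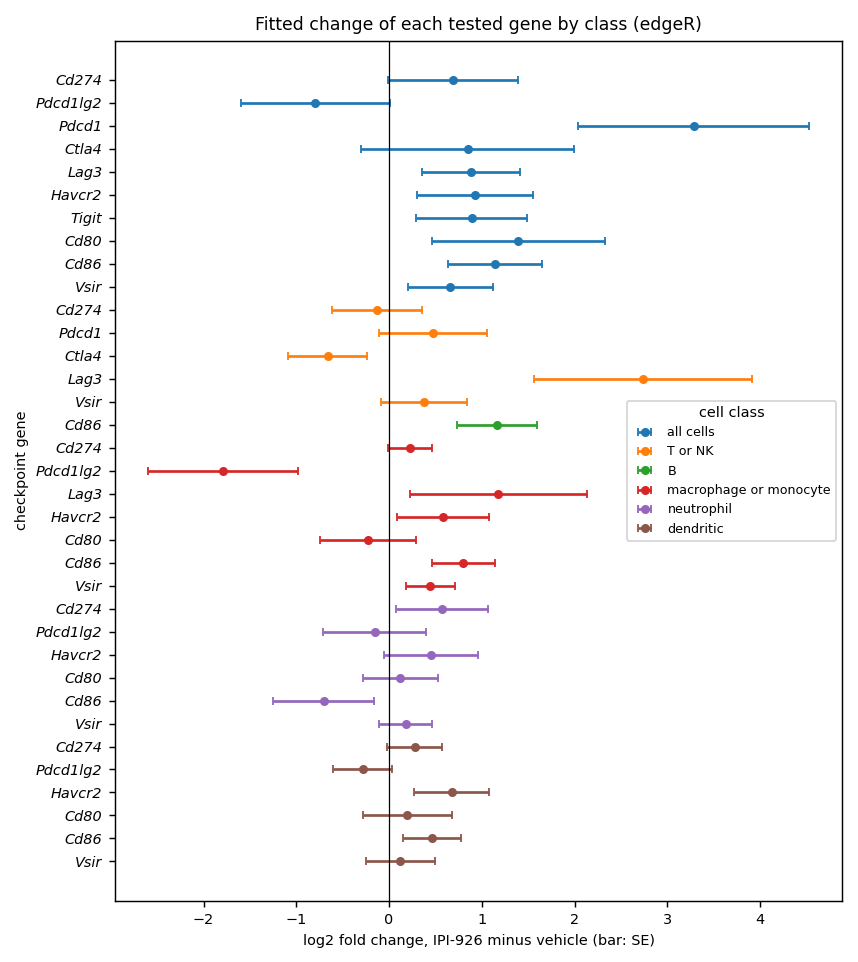
Points are fitted log2 fold changes, IPI-926 minus vehicle, and bars are standard errors for each checkpoint gene tested in all cells and in 5 classes. Pdcd1 in all cells, at 3.28, and Lag3 in T or NK cells, at 2.74, have the highest points and wide bars, and no gene passed the adjusted threshold. Pdcd1 in all cells came to 0.96 without IPI-926 replicate 3.

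The remaining ligands and receptors passed no test either. In neutrophils Cd274 had a fitted change of 0.57 (SE 0.49), which came to -0.068 without IPI-926 replicate 1 and to 1.13 without vehicle replicate 2. In dendritic cells the 6 tested genes ranged from -0.28 for Pdcd1lg2 to 0.68 for Havcr2. In macrophages or monocytes Pdcd1lg2 had a fitted change of -1.79 (SE 0.81), with an unadjusted p of 0.0645, which came to -0.84 without vehicle replicate 2. In ductal epithelial cells Lag3 and Vsir did not overlap between groups, as was so, with IPI-926 higher, for 3.32% of genes there. The vehicle and IPI-926 means were 1.42 and 2.88 scaled CPM for Lag3 and 1.38 and 3.22 for Vsir. Unscaled Lag3 in IPI-926 replicate 1, at 2.29 CPM, lay just above the highest vehicle library. IPI-926 replicates 1 and 3 had 71 and 62 of these cells, where 3 UMIs make 0.981 CPM or more. Of 697 cells in IPI-926 replicate 2, 572 lay in a cluster led by Ltf, against 30 and 23 in vehicle replicates 1 and 2. The part of few UMIs and of cluster make-up in the separation was not tested.

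In the sum of all cells, where more cells of a type and more RNA per cell cannot be told apart, edgeR called 0 of the 10 genes and 0% of 17847. No gene of the 10 had groups that did not overlap with IPI-926 higher, where 3.17% of all genes did. Of all genes 3.8% had an unadjusted p under 0.05, and Pdcd1 was the 1 checkpoint gene among them, with a change of 3.28 (SE 1.25). It stood at 0.421, 0.950 and 0.194 CPM with vehicle and at 1.09, 0.863 and 12.3 CPM with IPI-926, and without IPI-926 replicate 3 the change was 0.96 with an unadjusted p of 0.229 by edgeR. T or NK cells, which held most Pdcd1 UMIs, made up a larger share of IPI-926 replicates 1 and 3 than of any vehicle library.

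Cells with UMIs of several receptors were few at 1000 UMIs a cell, a depth at which receptors are often missed. In IPI-926 replicate 3 a Pdcd1 UMI was seen in 41.6% of T or NK cells at full depth and in 19.0% after thinning. The shares below thus do not give how many cells made several receptors. Of T or NK cells thinned to 1000 UMIs, the share with UMIs of at least 2 of Pdcd1, Ctla4, Lag3, Havcr2 and Tigit was 4.7%, 2.4% and 6.0% with vehicle and 2.2%, 6.8% and 10.0% with IPI-926. In IPI-926 replicate 3, 88 of these 158 cells were CD8 T cells, 88 of 454 or 19.4% of that subset, and 14 of them had 3 or more. Another 63 of the 158 had no subset name, and 15 of these had 3 or more. Among those CD8 T cells a Havcr2 UMI was found in 19.1% of cells with Pdcd1 and in 10.2% of cells without, while Lag3 and Ctla4 were each found in 16.8% of cells with Pdcd1 and in 19.5% of cells without. These shares come from 1 library and have no test. The CD8 T cells of vehicle replicate 2 and of IPI-926 replicate 1, 32 and 78 cells at that depth, had none with 2 or more.

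Related genes were read from 5 lists: related checkpoint genes, interferon gamma and PD-L1 control, T cell activation and exhaustion, dendritic cell maturation, and Hedgehog targets. No gene of any list passed the adjusted threshold in any class, so none rose or fell by edgeR. In the T or NK class 11 of the 19 activation and exhaustion genes tested had a positive change, 54.1% of all genes did, and the median was 0.37 against 0.04 over all genes. Without IPI-926 replicate 3 it was 5 of 15 and a median of -0.27. The 2 of smallest p were Eomes, a factor of effector and exhausted T cells, with a change of 3.24 (SE 1.25), and Batf with 0.88 (SE 0.46). Eomes stood at 4.25, 14.8 and 0 CPM with vehicle and 25.8, 16.4 and 212 CPM with IPI-926. Without IPI-926 replicate 3 Eomes did not pass the low-count filter and Batf came to 0.38. Of the related checkpoint genes 1 of 11 was positive, with a median of -0.24, and Cd200r1 and Fgl2 had the smallest p, with changes of -0.85 and -0.93. Without IPI-926 replicate 3 it was 3 of 10 and a median of -0.10.

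In macrophages or monocytes 15 of 18 genes of the interferon list were positive, beside 51.8% of all genes, with a median of 0.60 against 0.01. Without IPI-926 replicate 3 it was 9 of 18, with a median of -0.0029. Gbp2, a guanylate-binding protein gene, stood at 7.07 to 11.9 CPM with vehicle and 15.5, 7.67 and 358 CPM with IPI-926, a change of 3.89 (SE 1.46) with all libraries and 0.40 without IPI-926 replicate 3. In neutrophils 13 of 15 were positive, beside 46.8% of all genes, with a median of 0.47 against -0.04, and 11 of 16 with a median of 0.26 without IPI-926 replicate 3. Stat2 and Irf1 had the smallest p there, with changes of 1.13 and 1.22, and Irf1 came to 0.52 without that library. In dendritic cells 5 of 11 maturation genes were positive, beside 51.4% of all genes, with a median of -0.18 against 0.01, and Socs2 and Ccl22 had fitted changes of -0.38 and -1.01. Ccl22 came to -0.66 without IPI-926 replicate 3. Of the Hedgehog targets 3 were tested in fibroblasts and 0 were positive, beside 51.8% of all genes, with a median of -3.17 against 0.02. Gli1 and Ptch1 had fitted changes of -4.87 (SE 0.81) and -2.001 (SE 0.52). In IPI-926 replicate 3 the Crabp1 cluster made up 2257 of the 2337 cells of this class. Without that library it was 0 of 3, with a median of -2.26 against -0.01.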

How the data were processed

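Single-cell RNA was counted in 6 pancreatic tumour libraries, 3 of vehicle and 3 of IPI-926, grouped by the treatment in the labels. The deposited values are whole-number counts of UMIs per gene and barcode, made by the authors with Cell Ranger 6.1.2 per the file headers, whereas version 2.1.1 and build mm10 stand in the submitters' processing notes. Replicates were numbered in accession order, and the labels name no batch.

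Barcodes under 500 UMIs or 300 genes, or over 20% mitochondrial, were dropped, which left 54911, and 5114 predicted doublets, found by likeness to simulated sums of cells, were removed. The cells were clustered with leidenalg 0.10.2 (Python 3.11.15, scikit-learn 1.9.0) on 2000 variable genes and 30 components, without the checkpoint, sex-linked and mitochondrial genes. Of 46 clusters, 13 stayed unnamed. A cluster got no name without at least 3 detected markers of 1 class, or when led by genes of another class. The same held for a cluster with few UMIs a cell for its library and no marker of its class among its top genes. Counts were summed per library and class of at least 20 cells, and fitted over all genes with edgeR 4.0.16 (quasi-likelihood, TMM scaling, its filter on low counts, Benjamini-Hochberg threshold 0.05). Differences of response between classes were fitted with limma 3.58.1 on within-library differences of log2 values with a prior count of 2. Shares of cells with a UMI were taken after thinning each cell to 1000 UMIs. DESeq2 1.42.0, limma-voom, no low-count filter, stricter cells, doublets kept, clusters of 1 library left out, thinning to 2000 UMIs, log2(CPM + 5), medians and each library left out were tried. The lists without IPI-926 replicate 3 were added after seeing the data. On simulated counts with known changes the edgeR step recovered 0% of T or NK genes changed by 1 on the log2 scale, 53.6% of those changed by 2 and 100% of those changed by 4.

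All 10 checkpoint genes were named whatever their result, with the 2 genes of smallest p per list and class and the 3 most like each checkpoint gene. From these, the text gives the lists that bear on each class. Some results these rules name are not reported here. The genes and lists were chosen with earlier results of these data known, so they lend no independent evidence. Intervals and limits for counts of 0 cover counting error only.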

Additional observations from a re-analysis of the deposited data

Results flagged for a closer look

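Cells of clusters that carried no class name enter no comparison by class, and in IPI-926 replicate 3 they held several checkpoint genes above the vehicle libraries. Of these cells 3265 lay in a cluster in which no other library had 20 cells, so different clusters are compared. Cd274, the PD-L1 gene, stood at 9.65 CPM in them against at most 3.50 CPM in a vehicle library. Pdcd1 stood at 5.24 CPM against at most 0.186 CPM, and Ctla4 at 4.33 CPM against at most 0.940 CPM. The cluster of 3265 cells held 90 UMIs of Cd274 and 48 each of Pdcd1 and Ctla4. Its median was 1087 UMIs a cell, and Crabp1, Ccl8 and Cxcl9 were among its top genes. Whether the Pdcd1 and Ctla4 UMIs of the unnamed cells came from T cells left unnamed or from stray RNA was not tested. Cd80 stood at 24.2 CPM against at most 3.67 CPM, Cd86 at 19.7 CPM against at most 3.42 CPM and Vsir at 27.3 CPM against at most 6.59 CPM. All genes named here were picked because their exact Poisson interval lay above that of every vehicle library, so the interval adds no evidence. The other checkpoint genes did not meet that rule. The interval covers counting error only, and it does not take in the spread between libraries.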

How the results depend on the processing

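Of 716 values over 86 tested results, the lowest adjusted p was 0.0126, for Lag3 in T or NK cells without the low-count filter (2.78, 1 checkpoint gene called). With DESeq2 the genes called were 117 in all cells, 2 in T or NK, 3 in B, 6 in neutrophils, 18 in ductal, 31 in fibroblasts, 14 in endothelial, 33 in mesothelial and 7 in perivascular cells. With limma-voom T or NK cells had 0. Without the low-count filter the counts were 23 in T or NK, 23 in B, 49 in neutrophils, 16 in dendritic, 3 in endothelial, 2 in mesothelial and 32 in perivascular cells, and stricter cells gave 1 in neutrophils. The cause of these moves was not tested. No checkpoint gene was called by DESeq2 or limma-voom.

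With doublets kept, 14 class orders had an adjusted p of 0.0446, each at 0.03125, the smallest p that 6 libraries allow. The orders with dendritic cells then rested on 6 libraries and not 5, since vehicle replicate 3 had 19 dendritic cells with doublets removed, so passing does not mean a larger difference. The differences were 1.117 and 2.098 for Cd274 over dendritic cells and macrophages, 1.49 and 1.97 for Pdcd1lg2 over T or NK cells and neutrophils, 4.71 and 6.36 for Pdcd1 over dendritic and ductal cells, 5.29 and 6.37 for Ctla4 over B and dendritic cells, 2.65 and 2.82 for Tigit over neutrophils and ductal cells, 1.60 for Cd80 over macrophages, 0.72 and 1.09 for Cd86 over macrophages and B cells, and 1.96 for Vsir over T or NK cells. Changes that turned sign were Pdcd1 in T or NK cells at -0.30 and Cd274 there at 0.23 without clusters of 1 library, Cd274 there at 0.012 and Cd80 in dendritic cells at -0.25 with doublets kept, and the shares of neutrophils with Cd80 and Vsir at 0.827 and 0.997 percentage points when thinned to 2000 UMIs.

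Leaving out each library in turn, the genes called ranged from 0 to 3 in T or NK, 1 to 11 in B, 0 to 1 in macrophages or monocytes, 0 to 2 in neutrophils, 0 to 5 in endothelial, 0 to 1 in perivascular cells, and 0 to 1 for the macrophage minus neutrophil response. Changes ranged from -1.25 to 0.53 for Pdcd1lg2 in all cells, and in T or NK cells from -0.29 to 0.90 for Pdcd1 and -0.25 to 0.031 for Cd274. In macrophages or monocytes they ranged from -0.43 to 2.03 for Lag3 and -0.58 to 0.10 for Cd80. In neutrophils they ranged from -0.29 to 1.04 for Havcr2, -0.22 to 0.40 for Cd80, -0.068 to 1.13 for Cd274 and -1.16 to 0.16 for Pdcd1lg2. In dendritic cells they ranged from -0.21 to 0.32 for Vsir and -0.042 to 0.52 for Cd80, and in fibroblasts from -0.23 to 6.01 for Cd80. The Cd274 macrophage minus neutrophil response ranged from -0.61 to 0.20. The class orders ranged from -0.35 to 1.44 and -0.69 to 1.26 for Lag3 over dendritic cells and fibroblasts, and from -0.023 to 0.76 for Havcr2 over dendritic cells.

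No paired analysis was possible because the replicates were numbered in accession order and the labels give no number that groups share. T or NK cells of vehicle replicates 1 and 3, 90 and 55 cells, limit what can be seen of Lag3, Havcr2 and Tigit there.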
